A study of Homo sapiens with 6 samples.

Results

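Of the 58735 genes in the count table of Meg-01 cells, 10 are described here, those that build the platelet adhesion receptors for von Willebrand factor, collagen, podoplanin and immune complexes. They were taken by symbol. GP1BA, GP1BB, GP9 and GP5 encode the subunits of the GPIb-IX-V complex, GP6 and FCER1G encode the collagen receptor GPVI and its signalling chain, CLEC1B encodes CLEC-2, FCGR2A encodes the IgG receptor FcγRIIA, and SYK and LAT encode the kinase and the adaptor that act behind them. RNA of Meg-01, an established human megakaryoblastic cell line, was sequenced in 3 libraries of untreated cells and 3 libraries of cells treated with 500 µM sodium propionate (C3) for 48 hours. The time is that on the labels of the C3 samples, the control labels give none, and the methods of the study also name a shorter incubation. Both groups are the same line without genetic change, and the legend of the study calls its 3 libraries technical replicates, so p-values measure the spread between libraries and need not cover that between independent cultures. The question was whether C3 changed the RNA of these receptors, since the study set platelet responses to collagen and ADP beside receptor expression in these cells.

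The GPIb-IX-V complex captures von Willebrand factor under flow, with the ligand-binding site on GPIbα and with GPIbβ and GPIX needed for its transport to the cell surface. GPVI, FcγRIIA and CLEC-2 signal through tyrosine motifs called ITAM or, in CLEC-2, hemITAM. SRC family kinases phosphorylate the tyrosines, SYK docks on them, and LAT then assembles the complex that activates phospholipase Cγ2. GPVI has no ITAM of its own and borrows that of the FcRγ chain, the product of FCER1G.

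The coding sequences of these motifs show what the ITAM genes share. They were read from the MANE Select transcripts of GENCODE release 44 on GRCh38, and capitals mark the codons of the tyrosines and of the leucine or isoleucine 3 codons further on.
FCER1G: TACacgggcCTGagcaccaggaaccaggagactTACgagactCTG
FCGR2A: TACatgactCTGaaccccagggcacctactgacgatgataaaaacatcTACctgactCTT
CLEC1B: TACatcaccTTA
The FCER1G stretch covers codons 65 to 79 of 86 and lies within chr1:161218718-161218919 on the forward strand, interrupted by an intron. Its tyrosine parts are 7 codons apart. The FCGR2A stretch covers codons 288 to 307 of 317 at chr1:161518056-161518115 on the forward strand, in 1 exon, with 12 codons between them. The CLEC1B stretch is a single such part, codons 7 to 10 of 229, at chr12:9999071-9999082 on the reverse strand. The receptors thus carry the full motif within the protein (FCGR2A), on a partner chain (GP6 with FCER1G) or as a single part (CLEC1B).

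Library totals were 16159449 to 22821722 counts, and 15078 genes that reached 10 counts in 3 or more libraries were tested with edgeR's quasi-likelihood test. A gene was called when its adjusted p-value was below 0.01 and its level changed more than 1.3-fold, the gates of the study. Values below are TMM-normalized counts unless stated otherwise. Of the markers of the labelled cell type, ITGA2B was abundant at 12902 ± 390 in control cells (SD, n = 3), SELP had 2012 ± 73.4 and ITGB3 had 184 ± 7.42. After C3 treatment the values were 12377 ± 878 for ITGA2B, 2228 ± 47.2 for SELP and 233 ± 14.7 for ITGB3. The C3 libraries were above all control libraries for SELP (edgeR adjusted p = 0.095) and ITGB3 (0.033), and none of the 3 genes was called. PF4 was at 0 in every library, and PPBP (17.2 ± 2.94) and TREML1 (3.78 ± 3.13) had few counts in control cells. TUBB1, a tubulin gene of late megakaryocytes, was called lower, with 40.6 ± 2.07 in control cells and 15.4 ± 5.50 after C3 treatment, and its call was lost without control replicate 1 or C3 replicate 1. Several late platelet genes were thus at or near 0 in the labelled cell type. The summed counts of 8 T cell markers, nearly all from CD4, were 4904 to 5225 in control and 4677 to 4946 in C3 libraries, and overlapped. Summed counts of 10 erythroid markers were 748 to 791 in control and 899 to 909 in C3 libraries, with HBE1 at 0, and those of 6 fibroblast markers were 686 to 845 and 499 to 529. Of the erythroid markers, EPOR had 389 ± 17.1 in control and 497 ± 24.2 in C3 libraries. GYPB had 129 ± 8.28 and 102 ± 12.2, and SLC4A1 had 103 ± 17.3 and 105 ± 9.82. Of the 5 erythroid markers tested, 4 had positive log2 fold changes and 0 were called. The fibroblast sum followed LUM, which was called lower (log2 fold change -0.66), while the other 3 tested markers of that list had positive log2 fold changes and COL1A1 was called higher. The erythroid and fibroblast sums did not overlap between the groups, and their part in the results was not tested.

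Of the 10 genes, 8 passed the count filter. After C3 treatment, 1 of these 8 fell past both gates and 0 rose past them. Across all tested genes 6.52% were called, 5.05% higher and 1.47% lower. GP1BA was the gene that fell. FCGR2A had an adjusted p-value below 0.01 as well, with a fold change short of 1.3, so 2 of 8 passed the p-value gate alone, as 10.6% of all tested genes did. At an adjusted p-value below 0.05, which 19.8% of all tested genes reached, they remained the only 2 of the 8. At an unadjusted p-value below 0.05, 2 of the 8 were higher and 2 lower, where 16.8% of all tested genes were higher and 15.3% lower (32.1% in all), and DESeq2 and limma-voom each gave 0 higher and 1 lower past both gates. The control and C3 libraries were fully separated in the same 2 genes, GP1BA and FCGR2A, which compares with 34.4% of all tested genes. The median log2 fold change of the 8 genes was -0.11, against 0.0021 for all tested genes.

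**Figure D1:**
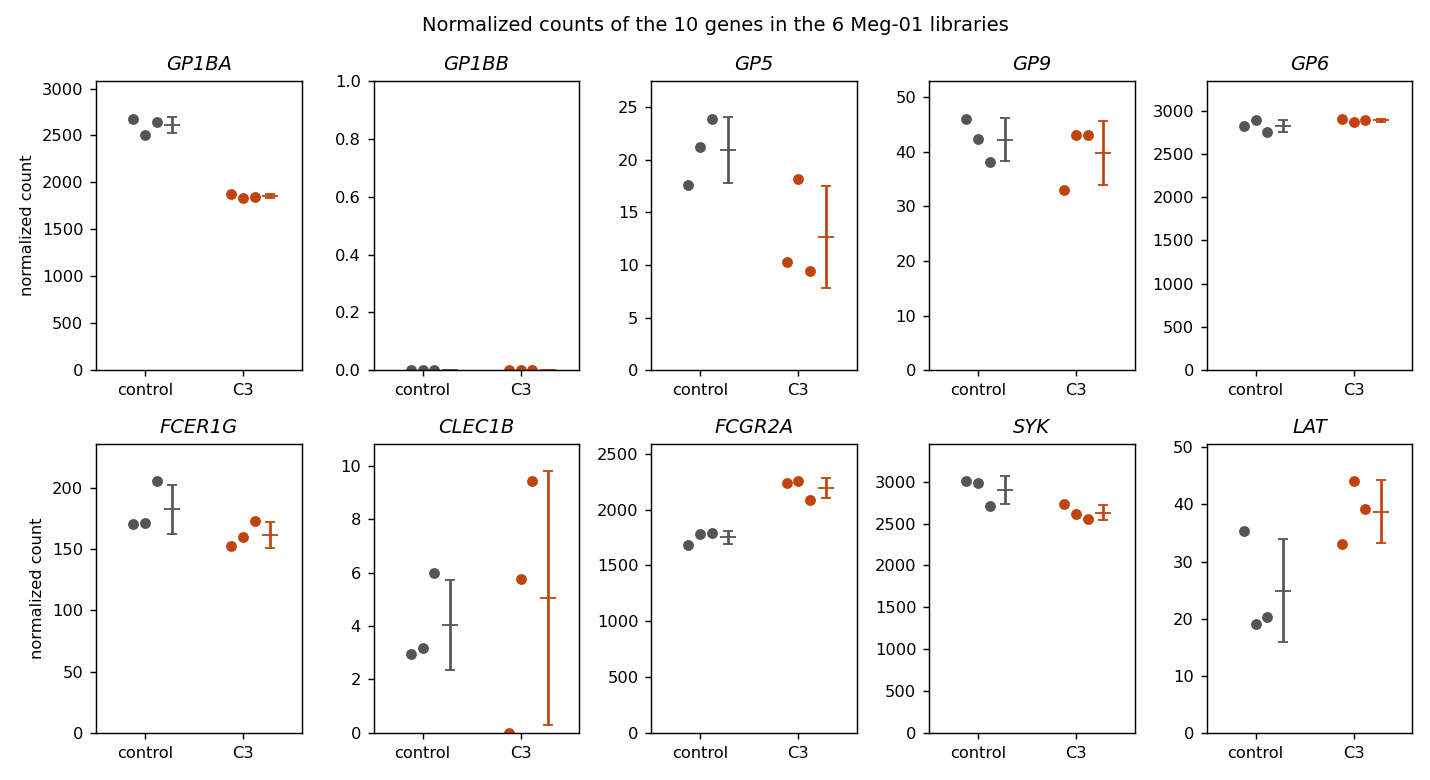
TMM-normalized counts (vertical axes, linear and starting at 0) of the 10 genes in the 3 control (grey) and 3 C3 (orange) Meg-01 libraries, with the mean and SD beside the points. GP1BA libraries lie between 2510.0 and 2678 in control cells and between 1838 and 1878 after C3, FCGR2A libraries lie between 2091 and 2253 after C3, and GP1BB is at 0 throughout.

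GP1BA (ENSG00000185245) encodes GPIbα, the ligand-binding chain of the complex, and lies at chr17:4932277-4935023 on the forward strand of GRCh38. Its normalized counts were 2678, 2510.0 and 2642 in control replicates 1 to 3 and 1878, 1838 and 1846 in C3 replicates 1 to 3. The C3 libraries were all below the control libraries, and the C3 libraries differed from each other by far less than the groups did. The group means were 2610.2 ± 88.6 and 1854 ± 21.0 (SD, n = 3). On the log2 scale GP1BA changed by -0.49 (standard error 0.061), which leaves 0.71 of the control level with a 95% interval of 0.65 to 0.77, and the edgeR adjusted p-value was 2.2e-06. The exact two-sided permutation test of these 6 values gave 0.1, the smallest p-value that 3 against 3 libraries allow. GP1BA ranked 100 by p-value among the 15078 genes. CHRNE, on the other strand, shares 3.86% of the exon bases of GP1BA and had 29 to 49 counts per library.

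The partner subunit genes GP9 and GP5 were far less abundant. GP9 (ENSG00000169704, chr3:129060779-129062406, forward strand), the gene of GPIX, had normalized counts of 46.0, 42.4 and 38.2 in control cells and of 33.0, 43.1 and 43.1 after C3 treatment. The groups overlapped. The log2 change of GP9 was -0.080 (standard error 0.24), with a 95% interval of 0.68- to 1.32-fold and an edgeR adjusted p-value of 0.86. The fold change of GP1BA, 0.71, lies within this interval, so a change of that size was not distinguishable from none at this depth.

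GP5 (ENSG00000178732, chr3:194394821-194399266, reverse strand) encodes GPV, the subunit that thrombin cleaves and that the other subunits do not need for their surface transport. Its normalized counts were 17.6, 21.2 and 23.9 in control cells and 10.2, 18.2 and 9.41 after C3 treatment. C3 replicate 2 lay within the control range and the other C3 libraries below it. On the log2 scale GP5 changed by -0.72 (standard error 0.38), with a 95% interval of 0.36- to 1.03-fold and an edgeR adjusted p-value of 0.19.

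GP1BB (ENSG00000203618, chr22:19723539-19724771, forward strand), the gene of GPIbβ, was at 0 counts in all 6 libraries, where 3 counts over the 3 control libraries would be 0.056 CPM. In GENCODE release 44, 100% of its 959 exon bases are also exon bases of SEPTIN5 or of a readthrough gene (ENSG00000284874) on the same strand. SEPTIN5 had 1 to 25 counts and the readthrough gene 0 to 2 counts per library. How reads on shared bases were treated is not given in the sources used here, and the part of this overlap in the count of 0 was not tested. The 0 of GP1BB is therefore given as listed, without a statement on its transcript. In bulk RNA, fewer cells with a transcript and less transcript per cell cannot be told apart.

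Within libraries, a ratio of counts does not depend on library size or scaling. The log2 ratio of GP1BA to GP9 was 5.85, 5.87 and 6.09 in control replicates 1 to 3 and 5.81, 5.40 and 5.41 in C3 replicates 1 to 3. All C3 values were below all control values, with C3 replicate 1 and control replicate 1 closest to each other. The difference of the means was -0.40, and the exact permutation test (two-sided) gave p = 0.1, or 0.2 after Benjamini-Hochberg adjustment over the 4 ratios with a value. The log2 ratio of GP1BA to GP5 was 6.94 ± 0.24 in control and 7.21 ± 0.51 in C3 libraries (SD, n = 3). The groups overlapped and the exact permutation p-value was 0.4. This difference of 0.27 became 0.094 to 0.56 when single libraries were left out. The planned ratios with GP1BB have no value because of its counts of 0.

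GP6 (ENSG00000088053, chr19:55013705-55038264, reverse strand), the gene of the collagen receptor GPVI, was not called. Its normalized counts were 2821, 2888 and 2749 in control cells and 2907, 2873 and 2893 after C3 treatment, so that C3 replicate 2 lay within the control range. The fold change of 1.03 had a 95% interval of 0.94 to 1.12 (edgeR adjusted p = 0.73), which does not reach 1.3 in either direction. A long non-coding RNA on the same strand shares 9.99% of its exon bases and had 0 to 3 counts per library, and GP6-AS1 on the other strand shares 1.63% and had 49 to 85 counts.

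FCER1G (ENSG00000158869, chr1:161215234-161220699, forward strand), whose product carries the ITAM for GPVI, had normalized counts of 170.5, 171.8 and 205.4 in control cells and of 152.5, 159.8 and 173.3 after C3 treatment. Control replicate 3 was the highest library and the groups overlapped. The fold change was 0.89 with a 95% interval of 0.75 to 1.07, and the edgeR adjusted p-value was 0.40. The log2 ratio of GP6 to FCER1G within libraries was 3.95 ± 0.18 in control and 4.16 ± 0.095 in C3 libraries (SD, n = 3, exact permutation p = 0.2). This difference of 0.21 became 0.10 to 0.26 when single libraries were left out.

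Per exon length, the levels of the receptor genes were unequal. The length counts all exon bases, also those shared with another gene on the same strand (46.5% for LAT, 19.6% for FCGR2A, 9.99% for GP6). How reads on shared bases were treated is not given, so the order of the levels can depend on it. On the scale of CPM per kilobase of merged exons, control cells had 55.9 ± 1.38 of GP6 and 55.7 ± 1.89 of GP1BA (SD, n = 3), levels that did not differ beyond their spread and stood near the top 5% of tested genes (percentiles 95.06 and 94.99). SYK followed with 29.9 ± 1.68, FCGR2A with 17.4 ± 0.58 and FCER1G with 10.2 ± 1.10, each separated from its neighbours in every control library. GP9 had 2.58 ± 0.24, GP5 0.31 ± 0.047 and LAT 0.29 ± 0.11, and the values of GP5 and LAT overlapped. CLEC1B had 0.059 ± 0.025 and GP1BB was at 0. After C3 treatment GP1BA stood at 39.6 ± 0.45 and GP6 at 57.4 ± 0.34 on this scale, so that the control libraries of these genes overlapped and the C3 libraries did not.

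**Figure D2:**
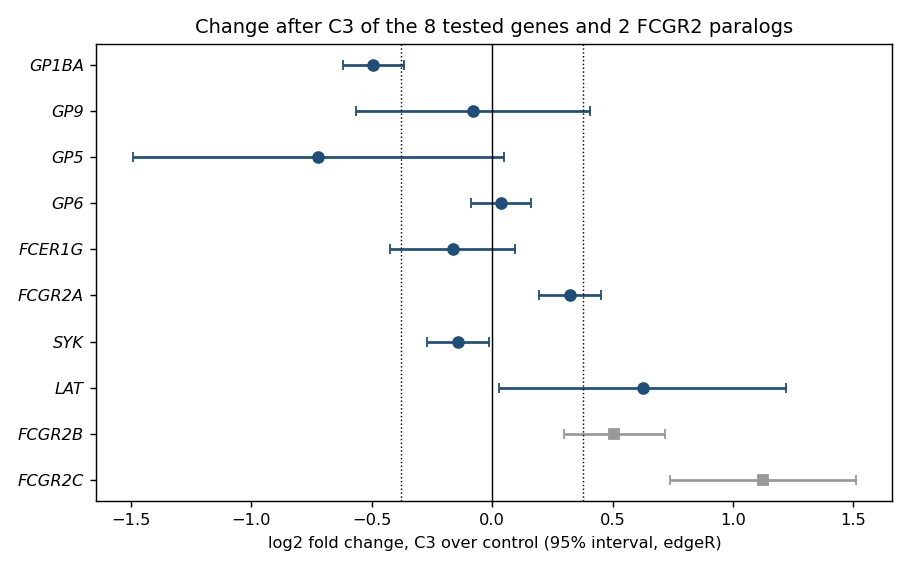
Log2 fold change after C3 treatment with its 95% interval from edgeR's quasi-likelihood fit for the 8 tested genes (blue circles) and for FCGR2B and FCGR2C (grey squares), with dotted lines at a fold change of 1.3 in either direction. GP1BA at -0.49 is the only blue point past a dotted line with an adjusted p-value below 0.01, while the wide intervals belong to GP5, LAT and GP9, which have few counts.

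FCGR2A (ENSG00000143226, chr1:161505430-161524013, forward strand) encodes FcγRIIA, which binds immune complexes and is the Fc receptor of human platelets. Its normalized counts were 1687, 1782 and 1793 in control cells and 2243, 2253 and 2091 after C3 treatment. Every C3 library was above every control library. The means were 1754 ± 58.4 and 2196 ± 91.0 (SD, n = 3), and the log2 fold change of 0.32 (standard error 0.063) corresponds to a 1.25-fold rise with a 95% interval of 1.14 to 1.37 (edgeR adjusted p = 5.9e-04). The exact permutation test gave 0.1. Long non-coding RNAs share 19.6% of its exon bases on the same strand. With library size alone in place of TMM factors the log2 fold change was 0.40 and FCGR2A passed both gates.

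FCGR2A lies in a cluster with the close paralogs FCGR2B, the inhibitory IgG receptor, and FCGR2C. FCGR2B (ENSG00000072694) had normalized counts of 494.7, 421.0 and 579.1 in control cells and of 767.1, 589.5 and 763.8 after C3 treatment. All C3 libraries were above all control libraries, C3 replicate 2 by a small margin. FCGR2B rose 1.42-fold (log2 fold change 0.51, standard error 0.10, edgeR adjusted p = 8.8e-04), and without control replicate 2 its log2 fold change was 0.40 and the call was lost. FCGR2C (ENSG00000244682) had 51.9, 70.0 and 46.6 against 96.7, 145.5 and 124.7, also without overlap, and rose 2.18-fold (log2 fold change 1.13, standard error 0.19, edgeR adjusted p = 1.2e-04).

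Reads of these genes can be assigned to the wrong paralog. Of all different stretches of 100 bases in the GENCODE transcripts of a gene, 3.77% of those of FCGR2A occur in FCGR2B or FCGR2C as well, 11.1% of those of FCGR2B and 26.1% of those of FCGR2C. The read length is not given in the sources used here. With stretches of 150 bases the shares were 1.27%, 9.09% and 18.9%. The sum of the 3 genes does not depend on how the counted reads were split among them. Reads left out for matching several genes would be missing from it, and whether any were left out is not given. The sum was 2234, 2272 and 2419 in control cells and 3107, 2988 and 2979 after C3 treatment. The means were 2308 ± 97.9 and 3025 ± 71.5 (SD, n = 3), and since each of the 3 genes had all C3 libraries above all control libraries, their sums had to separate too. FCGR2A held 76.0% ± 2.17 of the sum in control and 72.6% ± 2.63 in C3 libraries (SD, n = 3; exact permutation p = 0.2), with overlapping groups. The sum and the share were computed after the values of the paralogs had been seen.

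**Figure D3:**
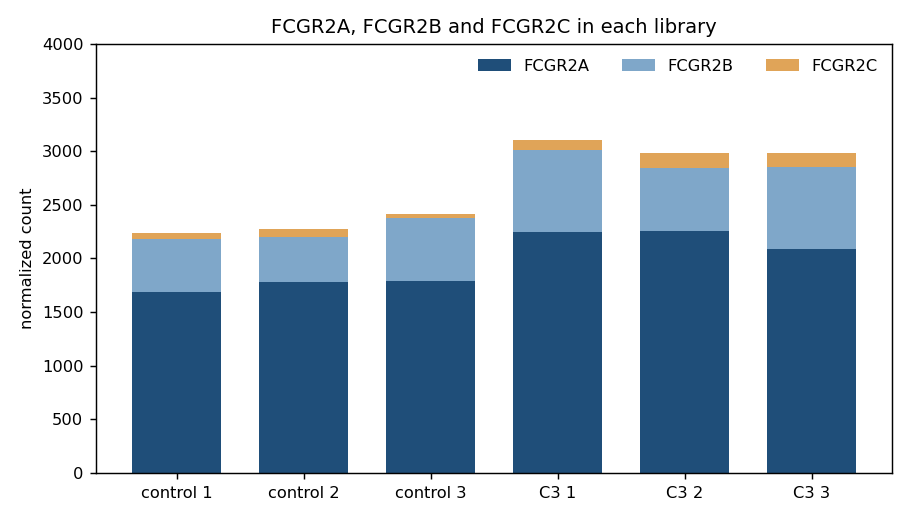
Stacked TMM-normalized counts of FCGR2A, FCGR2B and FCGR2C (vertical axis, starting at 0) in each of the 6 Meg-01 libraries. The stacks reach 2234 to 2419 in the control libraries and 2979 to 3107 in the C3 libraries, with FCGR2A as the main part of each.

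FCGR2A, FCGR2B and ITGAM are also transcribed in monocytes and granulocytes. The summed counts of 10 markers of these cells, ITGAM among them, lay between 1467 and 1652 in control and between 1584 and 1688 in C3 libraries. LYZ fell from 613 ± 18.8 to 430.5 ± 8.27 (SD, n = 3), while CD14, S100A8, S100A9 and ELANE had means of 0 to 3.92 in both groups. ITGAM rose from 645 ± 75.6 to 895 ± 45.3 (SD, n = 3), so that 1 marker of this list was called higher and 1 lower. The part of such cells in the value of FCGR2A was not tested.

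CLEC1B (ENSG00000165682, chr12:9985642-10013424, reverse strand), the gene of the podoplanin receptor CLEC-2, did not pass the count filter. Its raw counts were 3, 3 and 5 in control cells and 0, 6 and 12 after C3 treatment, and the groups overlapped. No fold change is given for it.

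SYK (ENSG00000165025, chr9:90801787-90898549, forward strand), the kinase that binds phosphorylated ITAMs, had normalized counts of 3003, 2986 and 2712 in control cells and of 2729, 2608 and 2556 after C3 treatment. C3 replicate 1 lay just above control replicate 3, so the groups overlapped. The fold change was 0.91 with a 95% interval of 0.83 to 0.99 (log2 value -0.14, unadjusted p = 0.034, edgeR adjusted p = 0.12), which did not pass either gate. Over the alternatives the log2 value ranged from -0.19 without control replicate 3 (edgeR adjusted p = 0.043) to -0.069 with library size alone (0.47).

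LAT (ENSG00000213658, chr16:28984826-28990784, forward strand), the membrane adaptor that SYK phosphorylates, had few counts in the Meg-01 libraries. Its normalized counts were 35.3, 19.1 and 20.3 in control cells and 33.0, 44.02 and 39.2 after C3 treatment. Control replicate 1 lay above C3 replicate 1, and the other control libraries lay below all C3 libraries. The log2 fold change of 0.63 (standard error 0.29) had an edgeR adjusted p-value of 0.13. It was 0.99 without control replicate 1 (edgeR adjusted p = 0.043), 0.46 without control replicate 2 (0.38) and 0.51 without control replicate 3 (0.30). A long non-coding RNA (ENSG00000261067) shares 46.5% of the exon bases of LAT on the same strand and had 0 to 9 counts per library, and another (ENSG00000261552), which overlaps LAT on the other strand, was at 0 counts in every library. How reads on shared bases were treated is not given, so the low counts of LAT are given as listed. The log2 ratio of SYK to LAT was 6.89 ± 0.44 in control and 6.08 ± 0.24 in C3 libraries (SD, n = 3), with all C3 values below all control values (exact permutation p = 0.1, adjusted over the 4 ratios 0.2).

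Behind the receptors, 43 of 47 kinases, adaptors and effectors of ITAM signalling were tested. Of these, 5 rose past both gates and 0 fell, or 11.6%, beside 6.52% of all tested genes. DESeq2 gave 4 higher and 0 lower, and at an unadjusted p-value below 0.05, 15 were higher and 7 lower by edgeR, beside 32.1% of all tested genes in either direction. The median log2 fold change was 0.047. ITPR3 (log2 fold change 0.62, adjusted p = 3.0e-04) and ITPR2 (0.48, adjusted p = 4.2e-04), calcium release channels of the endoplasmic reticulum that open downstream of phospholipase C, rose from 216 ± 33.1 to 334 ± 20.1 and from 337 ± 23.9 to 467 ± 20.5 normalized counts (SD, n = 3, edgeR's test). They kept their calls in each of the 13 alternatives. VAV3, an exchange factor for RAC proteins, rose by 0.41 on the log2 scale, but by 0.35 and without a call when C3 replicate 2 was left out. The adaptor gene FYB1 (0.44) and the kinase gene SRC (0.38) lost their calls in 5 and 6 of the 13 alternatives.

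By normalized counts, not divided by exon length, the most abundant genes of this list were RAC2, PRKCB and AKT2. PRKCB, a protein kinase C gene, had 5686 ± 134 normalized counts in control and 6989 ± 103 in C3 libraries (SD, n = 3), a 1.23-fold rise below the fold gate (edgeR adjusted p = 8.9e-04). RAC2 and AKT2 had log2 fold changes of -0.19 each, with edgeR adjusted p-values of 0.034 and 0.047. Of the core of the LAT complex, LCP2, which encodes the adaptor SLP-76, had a log2 fold change of -0.05 (edgeR adjusted p = 0.60). The phospholipase Cγ genes PLCG1 and PLCG2 had 0.29 (0.0022) and 0.20 (0.050). Of the other tested SRC family kinase genes, whose products phosphorylate ITAMs, YES1 had 0.30 (0.0052), FYN 0.18 (0.037) and LYN 0.05 (0.66). PLCG1 and YES1 thus passed the p-value gate but not the fold gate. In the other direction, ORAI1 had -0.25 (0.0092) and was the 1 gene of this list that passed the p-value gate downward. These 6 genes and ORAI1 were named after their values were seen.

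Of 25 inhibitors of ITAM signalling, 23 were tested, 2 rose and 1 fell past both gates, or 13.0%, beside 6.52% of all tested genes, with a median log2 fold change of -0.0033. By unadjusted p-value below 0.05 (32.1% of all tested genes), 6 were higher and 2 lower. LAIR1, an inhibitory collagen receptor, fell from 1444 ± 57.4 to 1053 ± 46.1 normalized counts (SD, n = 3, log2 fold change -0.46, edgeR adjusted p = 1.9e-05), and all C3 libraries were below the control libraries. CEACAM1, another inhibitory receptor, rose from 73.5 ± 5.79 to 121 ± 11.98 (0.73, adjusted p = 0.0018), and its call was lost without control replicate 1, control replicate 2 or C3 replicate 3. The other riser was FCGR2B. The most abundant inhibitors by normalized counts were CSK, which restrains SRC family kinases, the phosphatase gene UBASH3B and the lipid phosphatase gene INPP5D. Their log2 fold changes were -0.078, -0.041 and -0.067, with edgeR adjusted p-values of 0.43 to 0.68.

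All 22 intracellular partners and sheddases were tested. Past both gates 1 rose and 0 fell, or 4.55%, beside 6.52% of all tested genes. At an unadjusted p-value below 0.05, which 32.1% of all tested genes reached, 4 were higher and 4 lower by edgeR, and DESeq2 gave 1 and 0. TSPAN33, a tetraspanin that guides the sheddase ADAM10, rose from 642 ± 34.4 to 1073 ± 96.9 normalized counts (SD, n = 3, log2 fold change 0.74, edgeR adjusted p = 1.6e-07). FLNA, the gene of the actin crosslinker filamin A that anchors the tail of GPIbα, had 17489 ± 2278 and 22678 ± 1347 (SD, n = 3). On the log2 scale it changed by 0.37, just under the gate of 0.38 (edgeR adjusted p = 0.0012), and it passed both gates with limma-voom but not with DESeq2. TIMP3, an inhibitor of ADAM17, had a log2 fold change of 0.28 (adjusted p = 0.0017), and CALM3, one of the calmodulin genes, -0.096 (adjusted p = 0.36).

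Of the ligand genes of these receptors, only 10 of 23 had enough counts to be tested. Of these, 4 rose and 0 fell past both gates, or 40.0%, beside 6.52% of all tested genes. The median log2 fold change was 0.34. Without control replicate 3 the number that rose was 2. By unadjusted p-value below 0.05 (32.1% of all tested genes), 7 were higher and 1 lower, and DESeq2 and limma-voom each gave 3 higher and 0 lower. THBS1, the gene of thrombospondin 1, rose from 667 ± 47.4 to 1256 ± 68.1 normalized counts (SD, n = 3, log2 fold change 0.91, edgeR adjusted p = 2.1e-09). ITGAM (0.47), whose product binds GPIbα as part of the integrin Mac-1, lost its call without control replicate 3 (0.38). Of the laminin chains, LAMA5 (0.55, adjusted p = 5.4e-05) was called, and LAMB1 (0.36, adjusted p = 2.2e-04) and LAMC1 (0.30, adjusted p = 0.0013) passed the p-value gate only. COL1A1 had 4.52 ± 1.87 and 16.9 ± 8.56 normalized counts (log2 fold change 1.89), and its call was lost when any single control library was left out. SELP, abundant at 2012 ± 73.4, had a log2 fold change of 0.15 (adjusted p = 0.095). VWF, the main ligand of GPIbα and named after its value was seen, had 54.4 ± 20.7 and 33.7 ± 10.6 (log2 fold change -0.74, adjusted p = 0.063).

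Among 24 other ITAM-type chains and Fc receptors, 15 were tested. Past both gates 3 rose and 0 fell, or 20.0%, beside 6.52% of all tested genes. The median log2 fold change was 0.31. By unadjusted p-value below 0.05 (32.1% of all tested genes), 5 were higher and 0 lower, and DESeq2 gave 2 higher and 0 lower. The risers were FCGR2B, FCGR2C and FCGR1A, the last of which (FcγRI) signals through the FCER1G chain and rose from 189 ± 25.0 to 262 ± 38.3 normalized counts (SD, n = 3, log2 fold change 0.47, edgeR adjusted p = 0.0091). FCGR1A lost its call in 7 of the 13 alternatives. FCER1A, the IgE receptor chain that also pairs with FCER1G, had 878 ± 45.3 and 819 ± 22.3 (adjusted p = 0.36), and FCGRT, a receptor for IgG recycling, had a log2 fold change of 0.23 (adjusted p = 0.022).

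**Figure D4:**
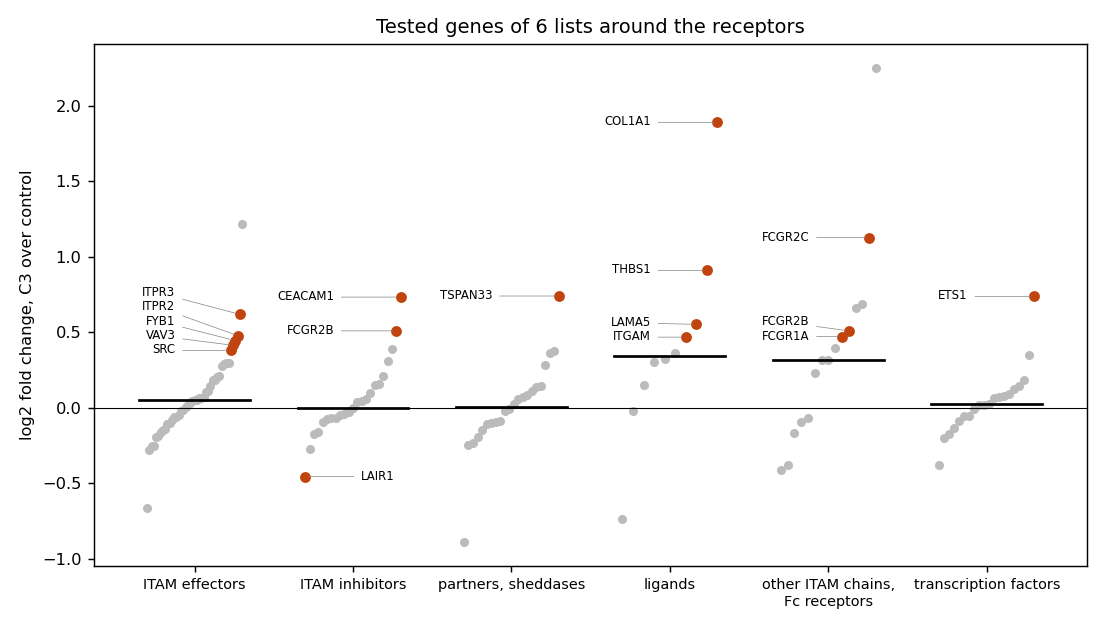
Log2 fold change after C3 treatment (vertical axis) of the tested genes of 6 lists written around the receptors, ordered within each list, with the list median as a black line and genes past both gates in orange. The medians of the ligands (0.34) and of the other ITAM chains and Fc receptors (0.31) stand above those of the other lists, which lie between -0.0033 and 0.047.

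Of 20 transcription factors of the megakaryocyte lineage, which bind the regulatory regions of many of these receptor genes, all were tested. Past both gates 1 rose and 0 fell, or 5%, beside 6.52% of all tested genes. By unadjusted p-value below 0.05 (32.1% of all tested genes), 2 were higher and 4 lower, and DESeq2 and limma-voom each gave 1 higher and 1 lower past both gates. ETS1 rose from 442 ± 31.2 to 738 ± 30.5 normalized counts (SD, n = 3, log2 fold change 0.74, edgeR adjusted p = 2.7e-07). The most abundant of them by normalized counts were LYL1, RUNX1 and GATA2. Their log2 fold changes were -0.18, -0.13 and 0.065, with edgeR adjusted p-values of 0.063, 0.13 and 0.53. NFE2, named after its value was seen, fell from 3201 ± 135 to 2466 ± 187 (log2 fold change -0.38, adjusted p = 1.9e-04), just short of the fold gate, which it passed with DESeq2 and limma-voom.

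The 250 bases upstream of the start sites were searched on both strands for 3 short motifs, in RefSeq promoters of GRCh38.p14. The motifs were those of GATA factors (AGATAA and its variant AGATAG, then TGATAA and its variant TGATAG), ETS factors (CAGGAA and its variant CCGGAA) and RUNX factors (TGTGGT and its variant TGCGGT). Of the 10 genes 9 had an entry, GP1BA being the exception. Taking the first entry of each gene, 5 held a GATA motif, 4 an ETS motif and 5 a RUNX motif, where 22.3%, 35.7% and 16.3% of all 35116 entries did. The windows of GP6, which was not called, and of FCGR2A, which passed the p-value gate, are shown, with motif letters in capitals.
GP6: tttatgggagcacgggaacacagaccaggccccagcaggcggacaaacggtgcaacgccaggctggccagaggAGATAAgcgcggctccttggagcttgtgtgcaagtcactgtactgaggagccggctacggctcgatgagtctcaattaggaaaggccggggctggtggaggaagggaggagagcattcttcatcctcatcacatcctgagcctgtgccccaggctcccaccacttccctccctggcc
FCGR2A: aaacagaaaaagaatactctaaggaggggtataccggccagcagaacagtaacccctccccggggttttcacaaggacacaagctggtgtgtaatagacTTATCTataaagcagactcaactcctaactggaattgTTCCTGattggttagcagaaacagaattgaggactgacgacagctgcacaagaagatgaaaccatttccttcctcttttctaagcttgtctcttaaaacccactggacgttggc
The GP6 window is chr19:55038265-55038514 on the reverse strand and holds 1 GATA motif that begins at position -177 from the start site. The FCGR2A window is chr1:161505207-161505456 on the forward strand. It holds a GATA motif at -151 and an ETS motif at -114, both read on the opposite strand. A match is a description of letters and not a binding site.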

How the data were processed

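RNA of 3 untreated and 3 C3-treated Meg-01 libraries was sequenced by the authors, whose processing notes name fastp, STAR 2.6.1d, featureCounts 1.5.0-p3 and DESeq2 with the GRCh38/hg38 build. The deposited values are raw counts per Ensembl gene without normalization. The sources used here do not give the strand setting or the annotation release. Of 58735 rows, 58207 were found in GENCODE release 44, which gave symbols, coordinates and exon lengths. Columns were matched to samples by their names.

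The 15078 genes that reached 10 counts in 3 or more libraries were compared with edgeR 4.0.16 (R 4.3.3, TMM factors, quasi-likelihood test, Benjamini-Hochberg adjustment over all tested genes, no replicate block). For normalized values, each count was scaled from the library's own effective size to the mean effective size. The standard error was derived from the F statistic as the size of the log2 change over its root. Ratios used a pseudocount of 0.5. Limits for a count of 0 cover counting error only. The fits were tested on simulated data.

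The 10 genes and the 6 lists, written by hand, were chosen with earlier results of these data known. The lists are described by counts and medians without a set test. Named genes were the 10 members, FCGR2B and FCGR2C. In each list, up to 5 called genes with the smallest p-values and the 3 with the most normalized counts were named, with exceptions marked. Alternatives were DESeq2 1.42.0, limma-voom (limma 3.58.1), RLE factors, library size alone, other count filters, a replicate block, leaving out single libraries, and other gates. One list of cell type markers is not reported here.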

Additional observations from a re-analysis of the deposited data

How the results depend on the processing

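Of the tested members, GP1BA kept its direction and its call in all 13 alternatives (log2 fold change -0.52 to -0.42). GP9, which was not called, turned to 0.0024 without control replicate 1 and to 0.027 without C3 replicate 1, and leaving out single libraries gave -0.14 to 0.027. The count of members called higher was 1 in place of 0 with library size alone and at an adjusted p-value below 0.05 or 0.01 without a fold gate (FCGR2A). Library size alone gave 1024 genes higher and 101 lower, against 761 and 222, and moved the median of all genes to 0.076. Replicate numbers did not pair the libraries (correlations of same-numbered libraries 0.021, -0.047 and 0.030), and with the replicate block GP1BA remained at -0.49 and 909 genes were higher and 268 lower. DESeq2 called 561 higher and 191 lower. Leaving out single libraries gave 3 to 4 effectors higher (5 with all libraries), 0 to 2 inhibitors, 1 to 2 partners, 2 to 4 ligands, 1 to 3 other ITAM chains and Fc receptors, and 1 to 2 transcription factors higher and 0 to 1 lower. At an adjusted p-value below 0.05 alone, which 19.8% of all tested genes reached, 12 effectors were higher and 4 lower, 4 inhibitors higher and 2 lower, 4 partners higher and 3 lower, 6 ligands higher, 5 other ITAM chains and Fc receptors higher, and 2 transcription factors higher and 1 lower. At 0.01 alone (10.6% of all tested genes) these were 8 and 1 effectors, 3 and 2 inhibitors, 3 and 1 partners, 6 and 0 ligands, 3 and 0 other ITAM chains and Fc receptors, and 2 and 1 transcription factors. Partners had 2 higher under limma-voom, the replicate block, library size alone, no filter on counts, or a minimum mean count of 50. With library size alone 3 inhibitors and 2 transcription factors were higher, and 1 transcription factor was lower with RLE factors, DESeq2 and limma-voom. Without FCGR2B, an alternative added after seeing the data, 1 inhibitor was higher. The cause was not tested. GP5, GP9 and LAT have no value at that minimum mean count, GP5 has no adjusted p-value from DESeq2, and the ratios with GP1BB could not be computed. GP1BB and CLEC1B had too few counts to be tested.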
